A study of Mus musculus with 20 samples.

Results

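Shc1 and Apba3 are genes of phosphotyrosine-binding adaptor proteins whose mRNAs came down with iron regulatory protein 1 (IRP1). They were examined with their closest relatives Shc2, Shc3, Apba1 and Apba2 in 5 mouse tissues. All probe sets that the platform annotation assigns to exactly 1 of these 6 genes were taken, which gave 11 of 45037 probe sets: 2 for Shc1, 3 for Shc2, 1 for Shc3, 3 for Apba1, 1 for Apba2 and 1 for Apba3. A further probe set is shared by Hs3st5 and Apba3 and was not attributed to either gene. Its log2 signal lay between 3.42 and 4.58, below every array median. Its mean log2 difference of IRP1 minus control was 0.11 (standard error 0.08), so it did not show the rise described below for Apba3. Shc1 and Apba3 were chosen because IRP1 enriched them, so their change with IRP1 is described below without a test. The relatives were chosen by family, and their change was tested.

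In iron-poor cells IRP1 binds a stem-loop, the iron-responsive element (IRE), in mRNAs of iron metabolism genes. Purified His-tagged IRP1 made in E. coli was combined with 50 µg of pooled total tissue RNA from C57BL6/J mice and recovered with a rabbit antibody to IRP1. In the control reaction the recombinant protein was left out, according to the protocol, although the sample labels of the controls still name it. About 120 ng of recovered RNA was amplified and hybridised to an Affymetrix mouse genome array. Each of 5 tissues had 2 arrays with IRP1 and 2 control arrays, which makes 20 arrays. For duodenum, liver and spleen the mice had received food with under 10 mg iron per kg during the 21 days after weaning. For bone marrow and brain they were 8 to 10 weeks old and on an iron-normal diet, so diet and age go with tissue. Pools of 6 mice are stated for bone marrow and brain samples, and a pool of 4 for a duodenum sample. Both sexes were mixed in all groups. Because animals were pooled, p-values measure the spread between reactions and arrays and not between animals.

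The Shc proteins carry a phosphotyrosine-binding domain and an SH2 domain. Shc1 binds activated growth factor and cytokine receptors and passes the signal through Grb2 and Sos to Ras, and its longest form is tied to oxidative stress. Shc2 and Shc3 are its neuronal relatives. The Apba proteins, also called X11 or Mint, pair a phosphotyrosine-binding domain with PDZ domains and bind the tail of the amyloid precursor protein. Apba1 and Apba2 are known as neuronal proteins, while Apba3 is made in most tissues and also binds Hif1an, the hydroxylase that restrains HIF-1.

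The IRE loop is read in DNA letters as CAGTGN, and a fuller form has the bulged C on the 5′ side, with any 5 bases between it and CAGTGN, so that it contains the shorter one. Start-site windows from RefSeq (GRCm38.p6), 250 bases before to 50 bases after a gene's start, were found for 5 of the 6 genes, in 7 windows. In the 50 bases after the start, on the transcribed strand, 1 of the 7 windows held CAGTGN, that of Apba3. It is shown because it is the only such match among the member genes, with the match in capitals at bases 43 to 48 after the start:
Apba3, chr10:81268192-81268221, plus strand: tgcgcaatagtcctggatggtgCAGTGAcc
Among all 32851 windows, 7.08% held CAGTGN in these 50 bases on the transcribed strand (13.2% on either strand), and 1.55% held the fuller form (3.5% on either strand). None of the 7 member windows held the fuller form there on the transcribed strand. A match is a description of letters, and the rest of each transcript was not searched here.

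Array medians lay between 5.50 and 5.62 and values between 2.63 and 15.35, all on the log2 scale. Each labelled tissue stood highest for its own markers: averaged over 6 enterocyte markers, the log2 signal was at least 13.39 on every duodenum array and at most 9.71 elsewhere. Hepatocyte, lymphocyte, neutrophil precursor and neuron markers separated liver, spleen, bone marrow and brain in the same way. Pancreatic acinar markers averaged 12.30 to 13.97 on duodenum arrays and 8.89 to 10.07 on spleen arrays, against 4.89 to 6.25 elsewhere, and their part in the results below was not tested. Of the 11 marker lists, 0 had a member called by limma in IRP1 minus control, mean of the tissues. Over all probe sets 0.773% were called higher and 1.03% lower. The lists are short, so this count is near those shares and does not show that the reactions held the same cell types. Spiked-in hybridization controls were dim on 3 arrays, with a log2 distance from the median array of -1.03 for IRP1 array 2 of spleen, -1.25 for control array 2 of spleen and -0.79 for control array 1 of bone marrow. Spleen and bone marrow results rest on these arrays, and their values without all 3 are given beside those that moved.

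Shc1 stood higher with IRP1 in every tissue by probe set 1422854_at, and most so in bone marrow and spleen. In bone marrow its log2 signal was 10.49 and 11.68 with IRP1, against 8.15 and 8.20 in the controls. In spleen it was 9.10 and 11.41 with IRP1, against 7.32 and 7.56 in the controls. In liver it was 9.76 and 10.19 with IRP1, against 7.88 and 7.87 in the controls. The groups do not overlap in any of these tissues, but the pair of spleen IRP1 arrays lies far apart. In duodenum the signal was 9.62 and 9.34 with IRP1, against 7.56 and 7.85 in the controls. In brain, where Shc1 signal was lowest in both reactions, it was 7.58 and 7.43 with IRP1, against 6.40 and 6.15 in the controls. Both IRP1 arrays were thus above both controls in 5 of 5 tissues, which held for 0.409% of all probe sets, and this contrast is the one that chose the gene. In single tissues the same held for 16.6% of all probe sets in duodenum, 19.2% in liver, 17.6% in spleen, 19% in bone marrow and 16.7% in brain.

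The log2 difference of this probe set was 2.91 in bone marrow (7.51-fold), 2.81 in spleen, 2.10 in liver, 1.77 in duodenum and 1.23 in brain (2.34-fold), and the mean of the tissues was 2.16 (standard error, SE, 0.22; 4.48-fold). It ranked 18 of 45037 probe sets by this mean. The spleen value rested on its second IRP1 array: the log2 difference was 1.65 without that array and 3.97 without the first. Without the 3 arrays with low hybridization controls it was 1.77, and the bone marrow value was 2.89.

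The other Shc1 probe set, 1422853_at, did not show this. The annotation links both to the same target record. Its log2 signal stayed between 4.79 and 6.21 on all 20 arrays, near the array medians. The mean difference was log2 0.27 (SE 0.11, 1.21-fold), with 0.09 in duodenum, 0.13 in bone marrow and 0.41 in brain as its lowest, second lowest and highest tissues. Both IRP1 arrays lay above both controls in 3 of 5 tissues (liver, spleen and brain), as for 6.65% of all probe sets in 3 or more tissues, and the arrays overlapped in duodenum and bone marrow. Why the probe sets of Shc1 differ was not tested.

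**Figure D1:**
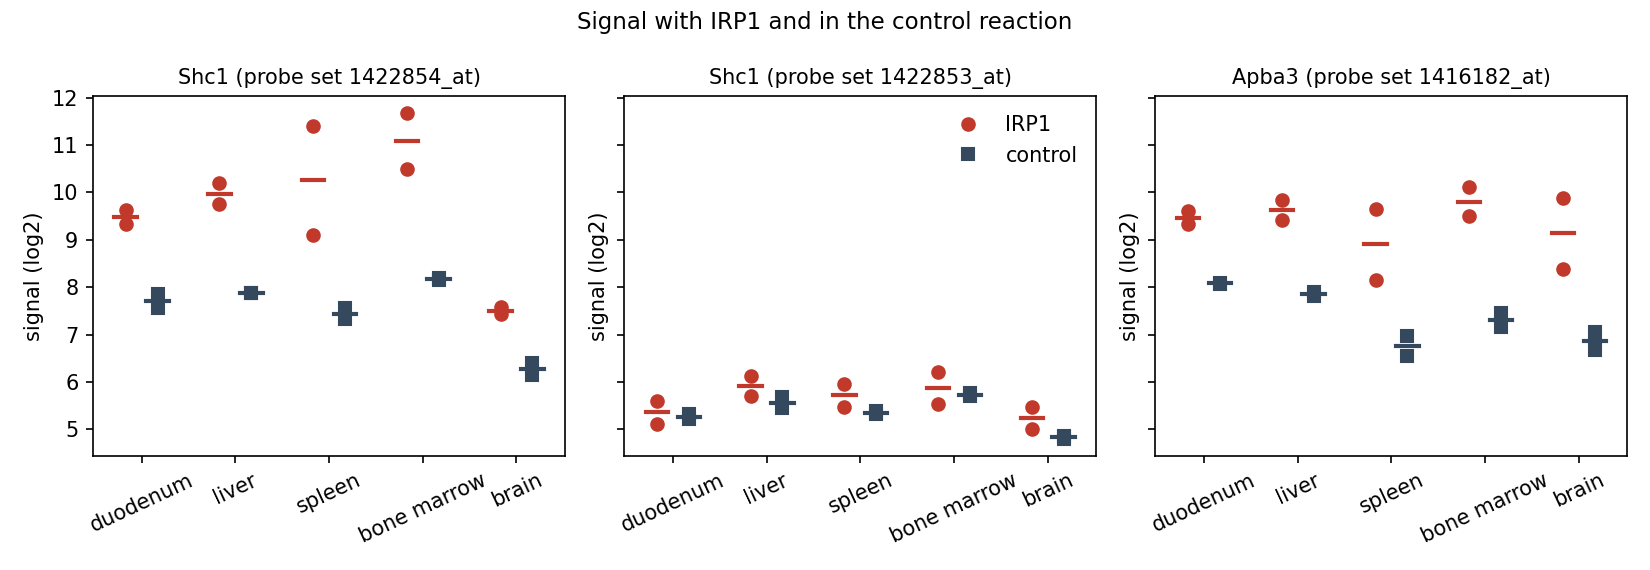
Log2 signal (vertical axis) of both Shc1 probe sets and the Apba3 probe set in 5 tissues (horizontal axis). Red circles are the 2 IRP1 arrays and dark squares the 2 control arrays of each tissue, and bars are their means. In the left and right panels every IRP1 array lies above both controls of its tissue, and in the middle panel the values stay between 4.79 and 6.21.

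Apba3, read by probe set 1416182_at, also stood higher with IRP1 in every tissue, with another order of tissues. In bone marrow its log2 signal was 9.51 and 10.10 with IRP1, against 7.46 and 7.15 in the controls. In brain it was 8.39 and 9.88 with IRP1, against 7.05 and 6.67 in the controls. In spleen it was 8.15 and 9.65 with IRP1, against 6.55 and 6.96 in the controls. As with Shc1, groups did not overlap, and here the IRP1 arrays of brain as well as those of spleen lay far apart. In liver the signal was 9.43 and 9.84 with IRP1, against 7.89 and 7.81 in the controls. In duodenum it was 9.60 and 9.32 with IRP1, against 8.07 and 8.09 in the controls. Duodenum thus had the highest control signal and the smallest difference.

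The log2 difference of Apba3 was 2.50 in bone marrow (5.66-fold), 2.28 in brain, 2.15 in spleen, 1.78 in liver and 1.38 in duodenum (2.60-fold). The mean of the tissues was 2.02 (SE 0.19, 4.05-fold), rank 21 of 45037. In brain the difference was 1.53 without the second IRP1 array and 3.02 without the first. In spleen it was 1.40 without the second IRP1 array, 2.90 without the first and 1.61 without the 3 arrays with low hybridization controls, which also put bone marrow at 2.66.

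Set side by side, Shc1 had its smallest difference in brain and Apba3 its smallest in duodenum, while both had their largest in bone marrow. The smallest stayed in these tissues under every setting run, but the largest did not. With quantile normalization the log2 difference of Shc1 was 3.10 in spleen and 2.56 in bone marrow, and that of Apba3 was 2.50 in brain, 2.31 in spleen and 2.22 in bone marrow. Leaving out 1 array at a time put the largest difference of Shc1 in spleen for 3 of the 20 arrays, and that of Apba3 in brain or spleen for 3 of the 20. The tissue means of Shc1 spanned 3.58 on the log2 scale with IRP1 and 1.90 in the controls, and those of Apba3 spanned 0.90 with IRP1 and 1.33 in the controls. Whether either gene's difference varies between tissues was not tested, because this contrast chose them.

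**Figure D2:**
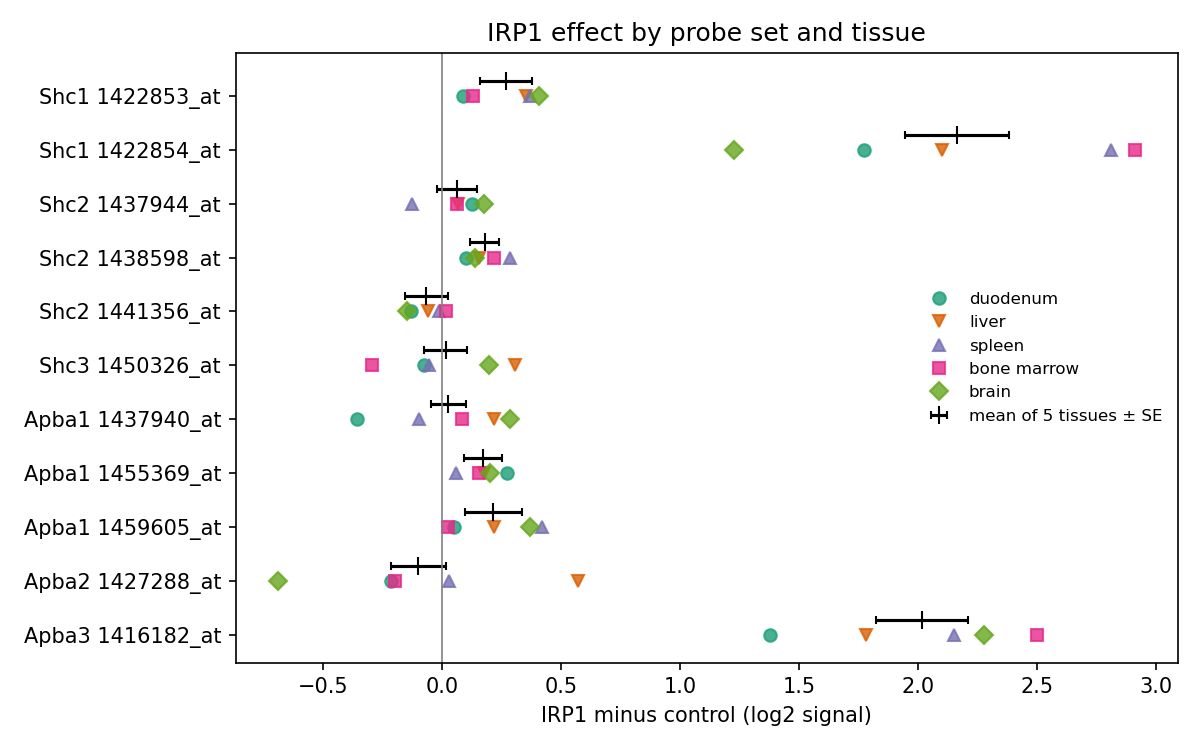
IRP1 minus control in log2 signal (horizontal axis) for the 11 probe sets (vertical axis). Coloured symbols are the 5 tissues and black bars the mean of the tissues ± SE. Probe sets 1422854_at of Shc1 and 1416182_at of Apba3 lie between 1.23 and 2.91, and the tissue values of the other 9 lie between -0.69 and 0.57.

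The separation of replicate arrays was compared with known IRE mRNAs. As positive controls 6 such genes were read by their brightest probe set: Tfrc (transferrin receptor), Slc40a1 (ferroportin), Alas2 (erythroid heme synthesis), Epas1 (HIF-2 alpha), Fth1 (ferritin heavy chain) and Slc11a2 (the iron transporter DMT1). In the mean of the tissues 6 of 6 rose, against 0.773% of all probe sets, with a median log2 change of 1.60. The size depends on the probe set: Tfrc rose by 2.19 by its brightest and by 2.88 and 1.98 by its others. Slc40a1 rose by 1.36 and 2.83, Epas1 by 1.35 and 1.73 and Fth1 by 0.84 and 1.16, brightest first. For Slc11a2 these were 1.84 and, by its others, 0.02 to 1.62. Shc1 and Apba3 are therefore not ranked against the IRE mRNAs. On IRP1 array 2 of spleen, Shc1 stood 3.97 and Apba3 2.90 above the mean of the controls, and the IRE mRNAs averaged 1.70 above it. On IRP1 array 1 of spleen these log2 values were 1.65, 1.40 and 0.85. On IRP1 array 2 of bone marrow they were 3.50, 2.80 and 2.31, and on array 1 they were 2.32, 2.20 and 2.06. In spleen, bone marrow, liver and duodenum the array with more Shc1 also had more Apba3 and more of the IRE mRNAs. In brain, array 2 had Shc1 at 1.15, Apba3 at 3.02 and the IRE mRNAs at 2.05, while array 1 had 1.30, 1.53 and 1.86, so there Shc1 did not follow.

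**Figure D3:**
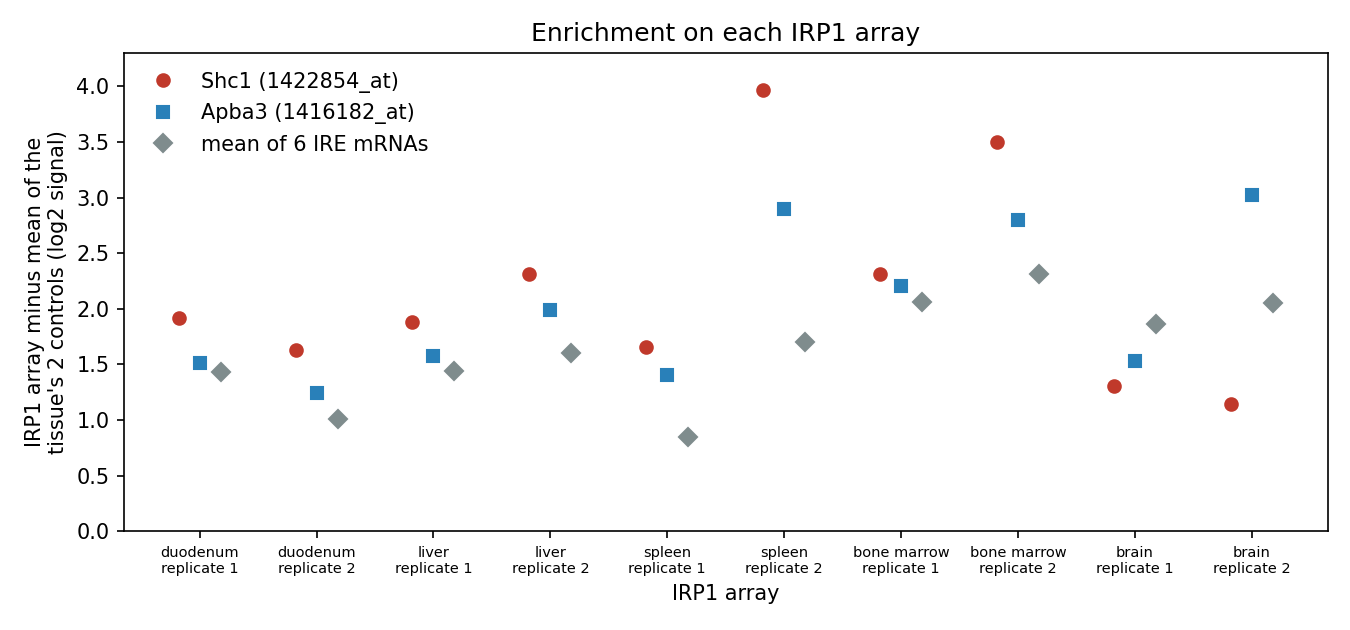
Log2 signal of each of the 10 IRP1 arrays minus the mean of its tissue's 2 controls (vertical axis), for Shc1 (circles), Apba3 (squares) and the mean of 6 IRE mRNAs (diamonds). All values are above 0, from 0.85 for the IRE mRNAs on spleen array 1 to 3.97 for Shc1 on spleen array 2.

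No relative was called changed with IRP1. Of the 8 probe sets of Shc2, Shc3, Apba1 and Apba2, 0 were called higher and 0 lower by limma in the mean of the tissues (adjusted p under 0.05, Benjamini-Hochberg over 45037 probe sets), against 0.773% higher and 1.03% lower over all probe sets. Mean log2 differences ran from -0.10 to 0.22 with adjusted p from 0.142 to 0.958, and 2 of 8 had an unadjusted p under 0.05. The 95% intervals of these means reached from -0.35 at the lowest to 0.47 at the highest. In single tissues 0 of 40 comparisons were called (3 at an unadjusted p under 0.05), against 0.235% of probe sets higher and 0.182% lower in at least 1 tissue. The F-test of differences between tissues in the IRP1 effect called 0 of 8 (adjusted p 0.930 to 0.999, 1 at an unadjusted p under 0.05), against 0.0111% of all probe sets. Several relatives were dim: Shc3 ran from log2 4.28 to 5.14 and Shc2 probe set 1441356_at from 4.23 to 5.04, below every array median. Where a probe set gives little signal, a missing call cannot show that IRP1 did not recover the RNA.

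Shc2, the relative of Shc1 also called ShcB or Sck, was not called by any of its 3 probe sets. By 1438598_at both IRP1 arrays lay above both controls in 5 of 5 tissues, as they did for 0.409% of all probe sets. Its log2 signal ran from 5.69 to 6.05 with IRP1 and from 5.36 to 5.95 in the controls, with values of 5.74 and 5.71 with IRP1 against 5.52 and 5.36 in the controls of spleen. The mean difference was log2 0.18 (SE 0.06, limma adjusted p = 0.142). With values under log2 5 set to 5 the difference was the same and the adjusted p was 0.0245. The other Shc2 probe sets stood at log2 0.06 (1437944_at) and -0.07 (1441356_at).

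Shc3, the neuronal ShcC or Rai, stood at log2 0.02 (SE 0.09, adjusted p = 0.958). Its probe set lay between 4.28 and 5.14 on all 20 arrays, below every array median. Apba1 (X11 alpha, Mint1) stood at log2 0.03 (1437940_at), 0.17 (1455369_at) and 0.22 (1459605_at). Its 1455369_at, which is bright in brain, had log2 signals of 7.40 and 7.35 with IRP1 against 7.31 and 7.03 in the brain controls. Apba2 (X11-like, Mint2) stood at log2 -0.10 (SE 0.12, adjusted p = 0.746). In brain its log2 signal was 6.93 and 7.98 with IRP1, against 8.26 and 8.02 in the controls, a difference of -0.69 (adjusted p = 0.670). Without IRP1 array 2 of brain that difference was -1.21 (adjusted p = 0.0389).

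**Figure D4:**
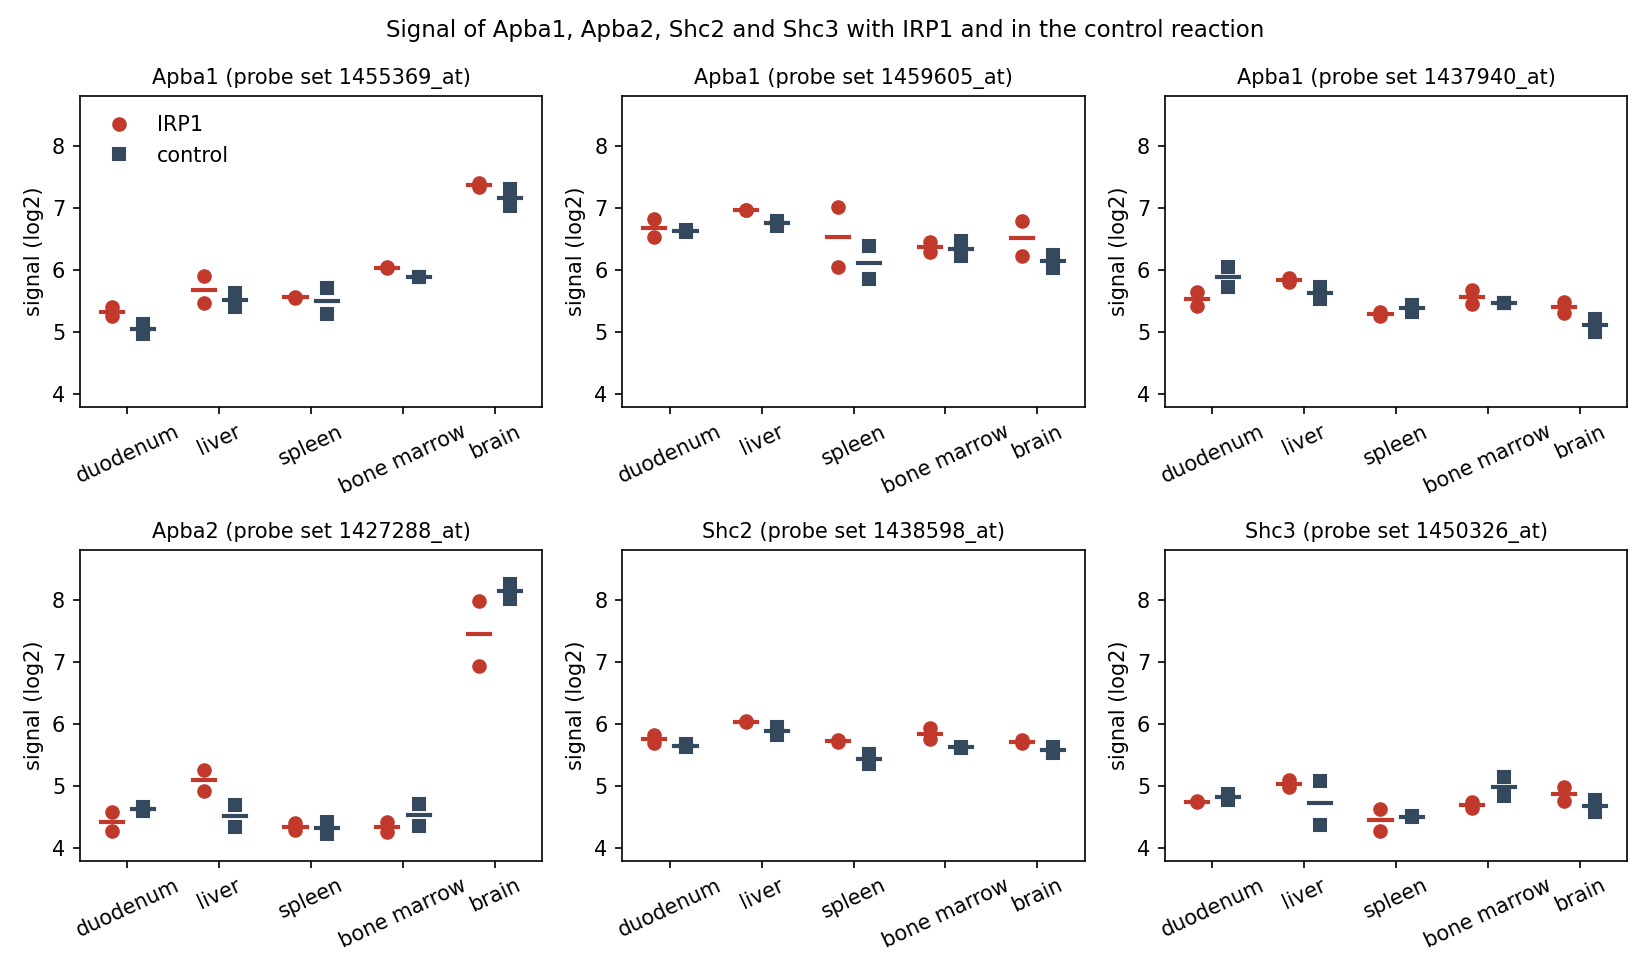
Log2 signal (vertical axis) of the Apba1 probe sets, Apba2, 1 Shc2 probe set and Shc3 in 5 tissues (horizontal axis), with IRP1 arrays as red circles, control arrays as dark squares and means as bars. Apba1 probe set 1455369_at and Apba2 stand highest in brain, with IRP1 and in the control.

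The control reactions show in which tissues the RNAs were recovered without added IRP1, a measure that did not choose the genes. No array of total RNA before recovery is among the samples. Whether control signal follows the amount of an RNA in the tissue was therefore not tested, and the tissue differences below are differences in control signal. Tissue differences were called by the F-test for 6 of 11 probe sets, against 63.1% of all probe sets, so the count itself is near the background. In such bulk samples fewer cells of a type and less RNA per cell cannot be told apart. Apba2 stood far higher in brain. Its log2 signal was 8.26 and 8.02 in brain controls, and no control array of another tissue was above 4.72. The difference of brain from the mean of the other 4 tissues was 3.64 (SE 0.21, 12.4-fold, adjusted p = 1.68e-10). Apba1 probe set 1455369_at was also higher in brain, with 7.31 and 7.03 and a difference of 1.68 (SE 0.14, 3.20-fold, adjusted p = 2.75e-08). Among the other tissues, this Apba1 probe set was lower in duodenum than in bone marrow (log2 difference -0.83, adjusted p = 0.00154), a pair called for 29.6% of all probe sets. The neuron markers averaged 11.38 to 11.81 on brain arrays and at most 6.06 elsewhere.

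The 3 probe sets of Apba1 disagreed on brain. Probe set 1437940_at was lower there, with log2 signals of 5.01 and 5.22 and a mean of 5.60 in the other tissues (log2 difference -0.48, SE 0.13, adjusted p = 0.00526). Probe set 1459605_at was not called (log2 difference -0.32, SE 0.21, adjusted p = 0.238). The call of 1437940_at was lost without control array 1 of brain (adjusted p = 0.109). In all, 2 of 11 probe sets were higher in brain and 3 lower, against 19.6% and 25.3% of all probe sets. The lower ones numbered 4 without the 3 arrays with low hybridization controls, where 1459605_at was called (log2 difference -0.42, adjusted p = 0.0458), and 4 with the control arrays alone, where Apba3 was.

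Shc1 was lowest in brain. By 1422854_at the brain controls averaged 6.28 against 7.80 in the other tissues (log2 difference -1.52, SE 0.39, adjusted p = 0.00387). By 1422853_at they averaged 4.83 against 5.48 (log2 difference -0.65, SE 0.19, adjusted p = 0.0116). Control means of 1422854_at ran in the order bone marrow 8.17, liver 7.87, duodenum 7.70, spleen 7.44 and brain 6.28. No neighbours in this order were called apart, against 32.5% of all probe sets for liver and bone marrow, 27.5% for duodenum and liver, 32.3% for duodenum and spleen and 38.2% for spleen and brain. Duodenum (1.42), liver (1.60) and bone marrow (1.90) each differed from brain, pairs called for 39.6%, 40.5% and 41% of all probe sets. The spread of the IRP1 arrays enters this fit, and with the 10 control arrays alone, a choice made after seeing the data, spleen also differed from brain (1.16, SE 0.18, adjusted p = 0.000324). The F-test of 1422854_at (adjusted p = 0.0230) lost its call without either brain control, with an adjusted p of up to 0.147. Without the 3 arrays with low hybridization controls it was 0.0011 and spleen differed from brain (1.04, adjusted p = 0.0405). The F-test of 1422853_at (adjusted p = 0.0358) lost its call without those arrays (0.0940), with array weights (0.0880) and with values under log2 5 set to 5 (0.215), and that floor also ended its brain call (0.104). Without control array 2 of brain the adjusted p of brain against the rest was 0.0511 for 1422854_at, and without either brain control it was 0.0568 or 0.0906 for 1422853_at.

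Shc2 and Shc3, known as neuronal in the mouse, were not called higher in brain in the fit of all arrays. The log2 difference of brain from the other tissues was 0.22 (SE 0.16, adjusted p = 0.299) for the Shc2 probe set 1441356_at, -0.16 and -0.07 for the other Shc2 probe sets, and -0.09 (SE 0.16, adjusted p = 0.683) for Shc3. The F-test called 0 of these 4 probe sets, against 63.1% of all probe sets. In brain controls the means were log2 5.04, 5.58 and 4.70 for Shc2 and 4.67 for Shc3, near or below the array medians. At such low signal a missing call cannot show that these RNAs are no higher in brain. Among pairs of tissues, Shc2 probe set 1438598_at was higher in liver than in spleen (log2 difference 0.44, adjusted p = 0.0169), a pair called for 38.4% of all probe sets. That call was lost with the control arrays alone (adjusted p = 0.0501) and without the 3 arrays with low hybridization controls (adjusted p = 0.150). With values under log2 5 set to 5, 1441356_at was called higher in brain by log2 0.02 (adjusted p = 0.0477), and the F-test called 1438598_at (adjusted p = 0.0039). Only control array 1 of brain was above that floor for 1441356_at (log2 5.04), so its call rests on 1 array. No value of 1438598_at was under 5 (lowest 5.36), so the floor left its own values unchanged. Without control array 2 of brain, the difference of 1441356_at was 0.55 (adjusted p = 0.0231), and without control array 1 it was -0.12 (adjusted p = 0.654).

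Apba3 control means ran in the order duodenum 8.08, liver 7.85, bone marrow 7.31, brain 6.86 and spleen 6.75. No neighbours in this order were called apart, and duodenum was above spleen (1.33, SE 0.43, adjusted p = 0.0253) and above brain (1.22, SE 0.43, adjusted p = 0.0318), pairs called for 32.3% and 39.6% of all probe sets. For spleen and bone marrow, a pair called for 18.4% of all probe sets, neither Shc1 nor Apba3 was called in the fit of all arrays. With the control arrays alone, Shc1 (1422854_at) was lower in spleen than in bone marrow (log2 difference -0.73, adjusted p = 0.0179). The F-test of Apba3 had an adjusted p of 0.0402 in the fit of all arrays of 0.000457 with the control arrays alone and of 0.0186 without the 3 arrays with low hybridization controls. Brain minus the other tissues was log2 -0.64 (SE 0.34, adjusted p = 0.141) in the fit of all arrays, and called with the control arrays alone (adjusted p = 0.00752). Liver was above spleen and above brain with the control arrays alone (adjusted p = 0.00149 and 0.00254) and without the 3 arrays (0.0405 and 0.0398), but not in the fit of all arrays (0.0543 and 0.0767). Leaving out 1 array at a time from the fit of all 20 ended the F-test call of Apba3 for 11 of them.

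Partners of the adaptors were called with IRP1 at a share near that of all probe sets, so the counts show nothing particular to them. Of 93 genes in 7 lists, 81 had a probe set with 1 gene symbol. In the mean of the tissues limma called 0 higher and 1 lower, against 0.773% and 1.03% of all probe sets, and 2 higher and 21 lower had an unadjusted p under 0.05. The share of all probe sets under that unadjusted p was not counted, so nothing is read from the unadjusted numbers. The median log2 change of the listed genes, by their brightest probe sets, was -0.11. That of all probe sets, bright and dim, was -0.0056, so the medians are not of like probe sets. Medians of the marker lists, also read by brightest probe sets, ran from -0.21 (hepatocytes) to 0.10 (erythroid cells). Among 16 further Shc-type and receptor adaptors 1 fell, Crkl, an SH2 and SH3 adaptor (log2 -0.40, SE 0.09, adjusted p = 0.0400). Crkl fell by its brightest probe set, while its other 3 stood between log2 -0.04 and -0.02, and leaving out 1 array at a time ended the call for 14 of the 20. Grb2, the adaptor that Shc1 recruits, stood at log2 -0.07 (SE 0.09), and Shc4, the remaining Shc gene, at -0.06 (SE 0.08).

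Of 13 receptors that recruit Shc, 10 genes of the Ras and MAP kinase chain and 7 partners of Shc1 in oxidative stress, 0 were called in either direction in the mean of the tissues, with median log2 changes of -0.07, -0.11 and -0.17. In single tissues 1 call was made over the 7 lists, against 0.182% of all probe sets lower in at least 1 tissue: Erbb3, an ErbB-family receptor, was lower in liver (log2 -0.997, SE 0.19, adjusted p = 0.0447). Of 12 synaptic and trafficking partners of the X11 family, 14 genes of the amyloid precursor family with its adaptors and secretases, and 9 partners of Apba3 in hypoxia signalling, 0 were called, with medians of 0.04, -0.11 and -0.24. Over all probe sets 0.773% were called higher and 1.03% lower in the mean of the tissues, so lists of this size would hold few calls. The amyloid precursor App stood at log2 -0.07 (SE 0.10), and Hif1an, the Apba3 partner, at -0.33 (SE 0.11, adjusted p = 0.116).

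Likeness of signal over the 20 arrays was measured by Pearson correlation, as a description, since arrays share tissues and reactions. Most like Shc1 (1422854_at) were Tmem248 (r = 0.939), Ormdl1 (0.892) and Gm6607 (0.890). Most like Apba3 were Slc49a4 (0.859), Lsm12 (0.838) and Ormdl1 (0.836), and Shc1 and Apba3 correlated at 0.792 with each other. Ormdl1, a regulator of sphingolipid synthesis, is the gene both lists name. The 20 arrays hold both reactions, so for Shc1 and Apba3 these correlations partly restate the contrast that chose them. In the mean of the tissues, IRP1 minus control was log2 1.93 for Ormdl1, 1.47 for Tmem248, 1.05 for Lsm12, 0.93 for Slc49a4 and 0.32 for Gm6607. For Apba2 the most alike were Dlgap1, a postsynaptic scaffold protein (0.992), Ntrk3, a neurotrophin receptor (0.992), and Soga3 (0.991). For Apba1, by its brightest probe set 1459605_at, they were Ssc5d (0.902), Akt1 (0.896) and Ccdc141 (0.893). For Shc2 (1438598_at) they were C1galt1c1 (0.925), Smkr-ps (0.900) and Rpl27a (0.895), and for Shc3 Dlx6os2 (0.799), Actrt3 (0.796) and Dnali1 (0.793).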

How the data were processed

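The authors deposited 1 normalized log2 signal for each probe set and array. The design text and the submitters' processing notes name RMA (Bioconductor) as well as MAS5 (GCOS, then quantile normalization), without saying which of them gave these values.

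Of 45101 probe sets, 64 Affymetrix controls were left out and 45037 tested. The platform annotation gives 1 gene symbol to 34945 of them, several to 932 and none to 9160. One limma 3.58.1 model (lmFit, eBayes; R 4.3.3) covered the 10 groups and all 20 arrays, with 10 residual and 6.14 prior degrees of freedom. Tested were IRP1 minus control by tissue and in the mean of tissues, F-tests of differences of this effect between tissues and of the control groups, pairs of control groups, and brain minus the other tissues. P-values are two-sided and adjusted by Benjamini-Hochberg within each contrast, and a call needs an adjusted p under 0.05. SE is the model's standard error.

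Named were all member probe sets, up to 4 called genes of each list with the largest changes, and the 3 genes most like each member gene. A listed gene is read by its brightest probe set. Members and lists were chosen with earlier results of these data known. Replicate arrays correlated at 0.992 at most. The fit of the mean of tissues was tested on simulated data. Python 3.11.15 and matplotlib 3.10.9 drew the figures. The number of arrays limits precision.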

Additional observations from a re-analysis of the deposited data

How the results depend on the processing

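Shc1 (1422854_at) and Apba3 were chosen for a high IRP1 minus control on these same arrays. That they kept this direction under every alternative run is therefore a description and no support. Without each array in turn the mean log2 difference ranged from 1.93 to 2.39 for Shc1 and from 1.87 to 2.17 for Apba3. Under the other settings it ranged from 1.95 to 2.21 for Shc1 and from 1.94 to 2.08 for Apba3. Of the relatives, 0 were called in the mean without any array, and 1 (Shc2, 1438598_at) with values under log2 5 set to 5. In single tissues 0 to 1 were called without each array in turn. Over all probe sets, quantile normalization gave 607 higher and 10 with differing effects between tissues, the floor at log2 5 gave 370 with differing effects, and dropping the 3 arrays whose hybridization controls were dim gave 216 higher and 256 lower. Without each array in turn these counts ran from 203 higher (without IRP1 array 1 of duodenum) to 477, from 118 to 1352 lower, and from 3 to 12 with differing effects. The 118 came with control duodenum array 1 left out, and the 1352 with IRP1 brain array 2 left out. Listed genes called lower were 2 with quantile normalization (1 higher), 5 with median centring, 0 with the floor, 3 with only probe sets reaching log2 6 in a group mean, 0 without the 3 arrays, and 3 with a replicate block. They were 0 to 8 lower and 0 to 1 higher without each array in turn. Members lower in brain numbered 1 with only probe sets reaching log2 6, which leaves out the dimmer ones, and 1 to 3 without each array in turn, against 4 without the 3 dim arrays and 4 with the control arrays alone. The floor ended the F-test calls of Shc1 (1422854_at, adjusted p = 0.118; 1422853_at, 0.215) and Apba3 (0.162) among controls, and made those of Shc2 given in the report. Replicate numbers were not taken to pair the reactions, since the labels state no pairing and 2 of 5 correlations were below 0: deviations of IRP1 and control arrays of the same number correlated at 0.27, -0.07, 0.53, -0.04 and 0.12 (duodenum, liver, spleen, marrow, brain, in that order). The cause of these shifts was not tested.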
